A study of Rattus norvegicus with 9 samples.

Results

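The histone genes of the rat Hist clusters and the main replacement histone genes were followed in RNA of CD4+ T cells from peripheral blood. The set was chosen by gene name alone. It held every gene whose reference name begins with Hist and a cluster number, together with H2afx, H2afz, H2afy, H2afv, H3f3a, H3f3b and H1fx, and each name was taken once per assembled locus. Of 47 genes found by name, 44 were above 0 TPM (a transcript's level per unit of length, scaled to the same total in every library) in at least 3 of the 9 libraries, among 29733 genes and other transcribed units that passed the same filter. They were 37 replication-dependent histones, all of the Hist names, and 7 replacement histones. This class was assigned by name alone, and single genes may not follow it. Hist1h2bcl1 and Hist1h2bo are listed with 2 exons, and the replacement genes H2afx and H1fx with 1. The 3 genes left out were Hist1h2aa, Hist1h2ba and a copy of H2afz on chromosome 6. H1f0, the linker histone H1.0, was also searched for by name, and no transcript in the files was found under it. Of the 44 genes, 40 had a mean of at least 1 TPM and were tested, and the 4 below it were Hist1h1t, Hist1h2ao, Hist1h2bl and H2afz.

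The libraries formed 3 groups of 3, all from SD rats aged 8 to 10 weeks. The combination group were CIA rats given a combination of compounds, which the labels do not name, for 4 weeks. The model group were CIA rats without it, and CIA was read as collagen-induced arthritis, a model of rheumatoid arthritis. The normal group were rats without CIA. The file headers give the combination libraries sample names other than those in the labels, and the groups here follow the labels, so the combination values rest on them. Whether a library stands for 1 animal is not stated in the labels, and the p-values therefore reflect library-to-library spread, which may be technical. The labels also do not say whether polyadenylated RNA was selected, how the CD4+ cells were isolated or how many animals each library holds.

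Nucleosomes are built from the core histones H2A, H2B, H3 and H4, and H1 binds the linker DNA between them. The replication-dependent genes are made mainly in S phase, when new DNA is packed. They mostly lack introns, and their mRNAs end in a stem-loop bound by Slbp instead of a poly(A) tail. Replacement histones such as H3.3 and H2A.Z are encoded by genes that mostly have introns, carry poly(A) tails on their mRNAs and are made throughout the cell cycle, so resting T cells of the blood use them for nucleosome exchange.

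Short letters near the gene start were counted where a promoter could be matched. RefSeq promoters (build GRCr8, 250 bases before to 50 bases from the start) were matched by symbol or synonym for 22 of 32 replication-dependent names and 6 of 7 replacement names. No H4 name was matched, Hist1h4m included, so these shares leave out the H4 family. Hist1h3b and Hist2h3c2, each listed at several loci, were matched by name to a single promoter each. The letters CCAAT, searched on both strands, were in 21 of the 22 promoters (95.5%), in 4 of the 6 replacement promoters (66.7%) and in 37.7% of all 27457 promoters in the table. TATAAA on the given strand was in 11 of the 22 (50%), in 2 of the 6 (33.3%) and in 9.08% of all promoters, and the shares on either strand were 68.2%, 33.3% and 14.3%. In none of the matched promoters of either class did a CCAAT share a letter with a TATAAA. A match describes these letters only and is no evidence of binding. Printed here to show these letters in place are the promoters of 3 replication-dependent genes whose normal libraries lay above all others, an H1 gene and 2 H2A genes, and that of H3f3b, the most abundant replacement histone, with CCAAT, its reverse complement ATTGG, and TATAAA in capitals. They lie at chr17:47421625-47421924, plus strand for Hist1h1b, chr17:47174365-47174664, plus strand for Hist1h2ac, chr2:186490715-186491014, minus strand for Hist2h2aa2 and chr10:101757587-101757886, minus strand for H3f3b.
Hist1h1b: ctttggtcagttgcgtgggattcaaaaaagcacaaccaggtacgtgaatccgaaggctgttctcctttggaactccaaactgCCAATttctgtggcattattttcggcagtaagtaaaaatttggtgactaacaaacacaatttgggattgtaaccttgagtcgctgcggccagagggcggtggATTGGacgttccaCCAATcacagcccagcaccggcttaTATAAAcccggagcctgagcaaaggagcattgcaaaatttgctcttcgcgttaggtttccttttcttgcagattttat
Hist1h2ac: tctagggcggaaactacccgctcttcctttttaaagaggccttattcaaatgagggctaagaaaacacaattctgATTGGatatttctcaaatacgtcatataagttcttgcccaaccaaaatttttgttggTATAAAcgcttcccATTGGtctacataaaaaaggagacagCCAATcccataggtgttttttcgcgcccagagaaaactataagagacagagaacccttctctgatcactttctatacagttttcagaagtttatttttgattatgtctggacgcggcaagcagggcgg
Hist2h2aa2: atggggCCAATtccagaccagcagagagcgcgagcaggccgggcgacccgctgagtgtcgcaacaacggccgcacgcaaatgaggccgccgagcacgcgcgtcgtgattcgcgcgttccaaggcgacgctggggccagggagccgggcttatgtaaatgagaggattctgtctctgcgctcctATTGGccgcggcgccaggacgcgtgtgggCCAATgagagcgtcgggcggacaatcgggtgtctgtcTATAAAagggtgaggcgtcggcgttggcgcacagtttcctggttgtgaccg
H3f3b: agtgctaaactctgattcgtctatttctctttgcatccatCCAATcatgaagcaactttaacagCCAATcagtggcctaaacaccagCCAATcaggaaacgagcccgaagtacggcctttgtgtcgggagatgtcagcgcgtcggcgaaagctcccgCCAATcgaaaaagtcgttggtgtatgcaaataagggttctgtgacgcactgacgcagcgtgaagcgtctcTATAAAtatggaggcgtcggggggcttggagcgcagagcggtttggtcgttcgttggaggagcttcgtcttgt
The promoters of Hist1h1b, Hist1h2ac and Hist2h2aa2 each held 3 copies of CCAAT on either strand and 1 TATAAA, and that of H3f3b held 4 copies and 1. The replication-dependent promoters printed are thus all among the 11 of 22 with TATAAA.

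Depth ran from 7.52 to 10.1 gigabases of aligned sequence over the 9 libraries. It was 7.77, 8.12 and 7.52 in combination, 9.86, 8.04 and 10.1 in model and 8.95, 8.35 and 9.07 in normal libraries. Every combination library was thus shallower than every normal one, and the part of depth in the results was not tested. In the summed TPM of 8 T cell markers found in the files (Cd3e, Cd4, Lck and others), the groups ranged from 2473 to 2756 in combination, 2062 to 2690 in model and 2696 to 3495 in normal libraries, with none at 0. Cd4 alone averaged 121 ± 22.1 TPM in combination, 121 ± 58.1 TPM in model and 222 ± 17.3 TPM in normal libraries (SD, n = 3 each). Its limma adjusted p against normal libraries was 0.101 in combination and 0.0795 in model. Of the 8 markers, 8 had a log2 fold change below 0 for model minus normal and 5 for combination minus normal. Other lists differed between libraries, all with assembled transcripts added. Erythroid markers (8 genes) summed to 266 to 869 TPM in combination, 2420 to 16187 TPM in model and 66.4 to 1124 TPM in normal libraries, with Ahsp, Epb42 and Slc4a1 at 0 in at least 1 library. Hba-a3 (2.82 on the log2 scale, limma adjusted p = 0.0408) and Alas2 (2.88, limma adjusted p = 0.0453) were higher in model than in normal libraries. Monocyte markers (8 genes) summed to 462 to 814 TPM in combination, 147 to 270 TPM in model and 127 to 293 TPM in normal libraries, with none at 0. Fcer1g (4.56, limma adjusted p = 0.011) and Csf1r (2.41, limma adjusted p = 0.0454) were higher in combination than in model libraries. Platelet markers (6 genes) summed to 79.5 to 124 TPM in combination, 20.3 to 35.7 TPM in model and 11.5 to 29.8 TPM in normal libraries, with Ppbp at 0 in at least 1 library. Gp1bb (1.80, limma adjusted p = 0.0249), Itga2b (1.26, limma adjusted p = 0.0265) and Pf4 (1.96, limma adjusted p = 0.0429) were higher in combination than in model libraries. Neutrophil markers (6 genes) summed to 8.87 to 16 TPM in combination, 1.49 to 9.41 TPM in model and 14.6 to 34.1 TPM in normal libraries, with Cxcr2 and S100a8 at 0 in at least 1 library. In that list S100a8 was lower in combination (-1.94 on the log2 scale, limma adjusted p = 0.0386) and in model (-2.23, limma adjusted p = 0.026) than in normal libraries, and S100a9 was lower in model (-2.30, limma adjusted p = 0.048). Fcgr3a, of the same list, went the other way in combination. It had 9.63, 6.11 and 4.09 TPM in combination, 0.569, 1.25 and 0.72 TPM in model and 0.278, 0.0892 and 6.41 TPM in normal libraries. For combination minus model this was 1.99 ± 0.64 (SE, limma adjusted p = 0.0939). Cytotoxic and NK markers (8 genes) summed to 49 to 72.6 TPM in combination, 33 to 53.3 TPM in model and 57.4 to 96.9 TPM in normal libraries, with Gzma, Gzmb and Ncr1 at 0 in at least 1 library, and Klrd1 was lower in model than in normal libraries (-1.84, limma adjusted p = 0.0238). B cell and plasma cell markers summed to 10.9 to 19.4 and 21.3 to 34.8 TPM in combination, 5.53 to 15.1 and 45.1 to 73.3 TPM in model, and 9.78 to 34.7 and 23.1 to 37.4 TPM in normal libraries, with none at 0. Xbp1, on the plasma cell list, was higher in model than in normal libraries (1.17, limma adjusted p = 0.0264). The part of these cells in the histone results was not tested. On the first principal component of all genes model replicate 2 stood at 3.1, near the combination libraries at -5.8 to 0.216, while model replicates 1 and 3 stood at 53.1 and 80.6 and the normal libraries at -48.8 to -37.2.

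Replication-dependent histones were lower in model than in normal libraries across all 5 families, and Hist1h4m, which encodes histone H4, fell past the test. The log2 fold change (model minus normal, of TPM + 1) was below 0 in 32 of the 34 tested, with a median of -0.67, while 49.7% of all 19497 units tested were below 0, with a median of 0.0037. All model libraries lay below all normal libraries in 21 of the 34 and in 1 of 6 replacement histones, and the reverse held for 0 of 40, whereas 12.9% of all units tested had model libraries wholly below normal ones and 16.6% wholly above. By limma with Benjamini-Hochberg adjustment over all units, 1 of 40 histones was lower and 0 were higher, against 0.605% and 0.759% of all units tested, and at an unadjusted p under 0.05 18 were lower and 1 higher, against 10% and 12.5% of all units. The number called lower moved with the processing and with single libraries. It was 6 where assembled transcripts were added to their genes, when 2.1% of all units were lower, 3 without model replicate 2, when 10.2% of all units were called in either direction, and 0 where any 1 normal library or model replicate 3 was left out. In bulk RNA, fewer cells that express a gene and less of its RNA per cell cannot be told apart.

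Hist1h4m, at chr4:170763605-170763916 on the minus strand of rn6, is 1 exon of 312 bases. It had 14.3, 9.51 and 13.8 TPM in combination replicates 1, 2 and 3, 14.6, 9.93 and 13.4 TPM in model replicates 1, 2 and 3, and 39.5, 62 and 41.6 TPM in normal replicates 1, 2 and 3. The combination and model libraries interleaved, and every normal library was above all of them. Its log2 fold change was -1.83 ± 0.25 (SE, n = 3 each) for model minus normal, with an adjusted p of 0.0274 by limma. For combination minus normal it was -1.84 ± 0.25, with an adjusted p of 0.028 by limma, and both comparisons use the same normal libraries. For combination minus model it was -0.013 ± 0.25, with an adjusted p of 0.985 by limma. The calls depend on single libraries. The limma adjusted p of model minus normal was 0.0583, 0.0916 and 0.0587 without normal replicates 1, 2 and 3 in turn, and 0.0682 without model replicate 3. For combination minus normal the limma adjusted p was 0.0706, 0.0904 and 0.0513 without normal replicates 1, 2 and 3 in turn, 0.0849 without combination replicate 1 and 0.0754 without combination replicate 2. The fold changes in these fits ran from -1.96 to -1.62. Histone genes have near-identical copies between which the authors' quantification could split reads, and RefSeq's GRCr8 table places a gene of this name on another chromosome, so the copy behind these values is uncertain.

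**Figure D1:**
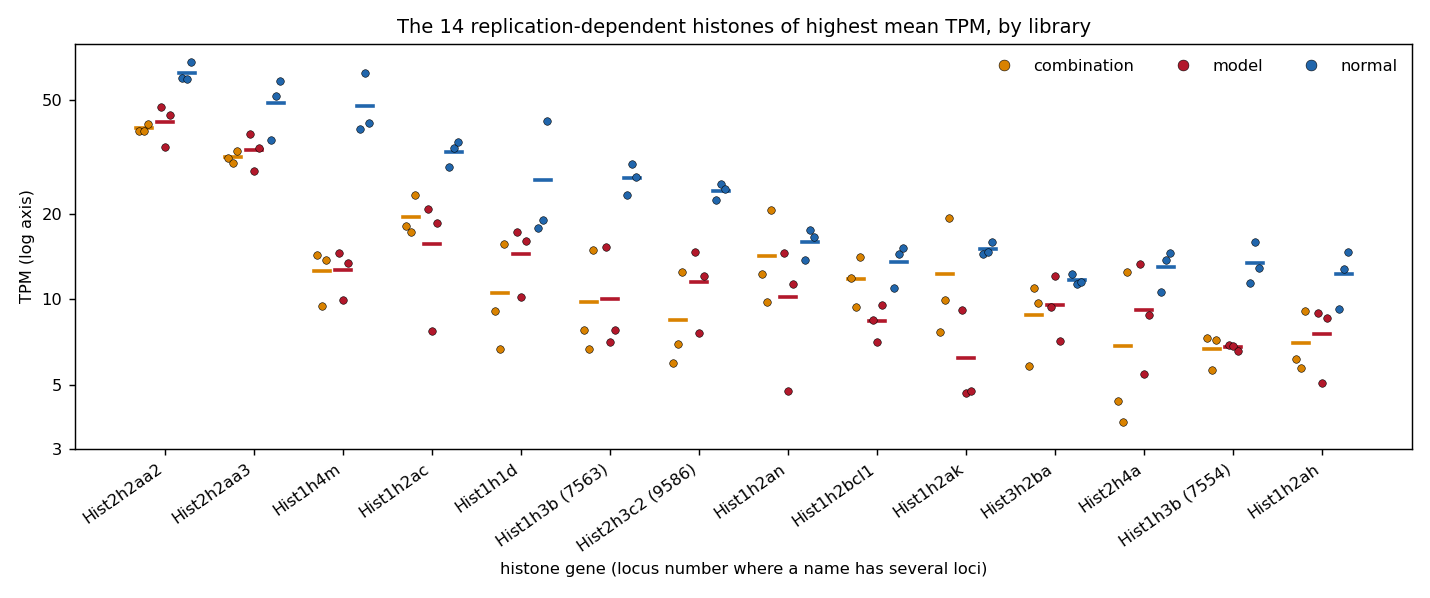
TPM (log axis) of the 14 replication-dependent histones of highest mean TPM, leaving out Hist1h1c and 1 copy of Hist2h3c2, in combination, model and normal libraries. Points are libraries and bars are group means, and Hist1h4m stands at 9.51 to 14.6 TPM in combination and model libraries and at 39.5 to 62 TPM in normal libraries.

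The other H4 entries, Hist2h4a, Hist2h4 and Hist1h4b, each 312 bases and without introns, had lower means in both CIA groups than in normal libraries but missed the threshold. Summed over the 4 genes, H4 had 22.1, 16.6 and 36.6 TPM in combination, 37.5, 18.3 and 26.4 TPM in model and 60.8, 87.3 and 71 TPM in normal libraries. Every normal library was above every other. Hist2h4a had 4.41, 3.71 and 12.5 TPM in combination, 13.3, 5.47 and 8.81 TPM in model and 10.6, 13.7 and 14.6 TPM in normal libraries. Its model and normal ranges overlapped through model replicate 1, and the log2 fold change of model minus normal was -0.52 ± 0.43 (SE, limma adjusted p = 0.503). Hist2h4, for which the same difference was -1.11 ± 0.44 (limma adjusted p = 0.187), and Hist1h4b, for which it was -0.73 ± 0.32 (limma adjusted p = 0.225), did not overlap between model and normal libraries.

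H3 stood next to H4 in the size of its differences from normal libraries. The median log2 fold change over its 8 entries was -0.83 for combination minus normal and -0.93 for model minus normal, against -1.03 and -0.92 over the 4 H4 entries. Hist1h3b, which encodes H3, is listed at 2 loci of chromosome 17. At chr17:44763598-44764008 (locus 7563) it had 7.79, 6.71 and 14.9 TPM in combination, 15.3, 7.08 and 7.79 TPM in model and 23.2, 29.7 and 26.9 TPM in normal libraries. Combination replicate 3 and model replicate 1 were the highest of their groups, and both lay under the lowest normal library. The log2 fold change was -1.42 ± 0.34 for combination minus normal (limma adjusted p = 0.0787) and -1.39 ± 0.34 for model minus normal (limma adjusted p = 0.0759). At chr17:44839721-44840131 (locus 7554) it had 7.3, 5.67 and 7.2 TPM in combination, 6.95, 6.86 and 6.58 TPM in model and 11.4, 15.9 and 12.9 TPM in normal libraries. Both CIA groups lay below the normal libraries here too, with log2 fold changes of -0.90 ± 0.18 for combination minus normal (limma adjusted p = 0.0614) and -0.87 ± 0.18 for model minus normal (limma adjusted p = 0.0539).

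Hist2h3c2, another H3 name, is listed at 5 loci, 2 on chromosome 2 and 3 on chromosome 17. The copy at chr2:198417619-198418029 (locus 9586) had 5.97, 6.99 and 12.5 TPM in combination, 14.7, 7.62 and 12.1 TPM in model and 22.3, 25.3 and 24.3 TPM in normal libraries. The normal libraries were all higher. The log2 fold change was -1.45 ± 0.30 for combination minus normal (limma adjusted p = 0.0631) and -1.04 ± 0.30 for model minus normal (limma adjusted p = 0.101). The copy at chr2:198390166-198390576 (locus 9583) had 2.53, 3.09 and 4.55 TPM in combination, 6.69, 2.44 and 4.13 TPM in model and 8.32, 9.69 and 9.68 TPM in normal libraries, again without overlap. With assembled transcripts added, both copies were lower in combination than in normal libraries, at -1.45 ± 0.29 (limma adjusted p = 0.0358) and -1.24 ± 0.29 (limma adjusted p = 0.0469). All 8 H3 entries are 411 bases long, and Hist1h2ail1, an H2A by its name, has that length too. Its TPM was 1.57, 2.2 and 3.22 in combination, 3.61, 1.39 and 2.27 in model and 6.98, 8.4 and 6.42 in normal libraries. The normal libraries stood apart, with log2 fold changes of -1.33 ± 0.29 for combination minus normal (limma adjusted p = 0.0665) and -1.32 ± 0.29 for model minus normal (limma adjusted p = 0.0591).

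H2A held the most TPM of the core families. Its 11 entries summed to 127, 126 and 164 TPM in combination, 156, 94.8 and 136 TPM in model and 183, 216 and 234 TPM in normal libraries, without overlap with normal. Hist2h2aa2 and Hist2h2aa3, neighbouring H2A genes of 393 bases each on chromosome 2, were the most abundant. Hist2h2aa2, at chr2:198381798-198382190, had 39, 39 and 41.2 TPM in combination, 47.3, 34.3 and 44.2 TPM in model and 59.5, 59.3 and 67.9 TPM in normal libraries. All normal libraries were higher, and the combination libraries lay within the model range. The log2 fold change was -0.63 ± 0.16 for combination minus normal (limma adjusted p = 0.0836) and -0.57 ± 0.16 for model minus normal (limma adjusted p = 0.0953). Hist2h2aa3 had 31.3, 30.1 and 33.2 TPM in combination, 38, 28.2 and 33.9 TPM in model and 36.1, 51.8 and 58.4 TPM in normal libraries. Model replicate 1 lay above normal replicate 1, so model and normal overlapped, and combination and normal did not.

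Among the H2A genes of chromosome 17, Hist1h2ac had 18.1, 17.2 and 23.2 TPM in combination, 20.7, 7.78 and 18.6 TPM in model and 29.2, 33.8 and 35.7 TPM in normal libraries. Model replicate 2 was far below the other libraries, and the normal libraries were all highest. The log2 fold change was -0.73 ± 0.33 for combination minus normal (limma adjusted p = 0.245) and -1.12 ± 0.33 for model minus normal (limma adjusted p = 0.104). Hist1h2ak had 7.67, 9.93 and 19.3 TPM in combination, 9.19, 4.7 and 4.78 TPM in model and 14.4, 14.7 and 15.9 TPM in normal libraries. Combination replicate 3 was above every normal library, while all model libraries were below them. Its log2 fold change of 0.84 ± 0.34 for combination minus model was the highest of the 40 histones tested in that comparison (limma adjusted p = 0.197), and for model minus normal it was -1.20 ± 0.34 (limma adjusted p = 0.1). Hist1h2an had 12.3, 9.82 and 20.6 TPM in combination, 14.6, 4.76 and 11.3 TPM in model and 13.7, 17.5 and 16.6 TPM in normal libraries, with overlap in every comparison. Hist1h2af was 1 of 2 replication-dependent genes above 0 for model minus normal, at 0.20 ± 0.30 (limma adjusted p = 0.726), with means of 2.95 ± 1.36 TPM in model and 2.35 ± 0.671 TPM in normal libraries (SD, n = 3 each).

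H2B had the smallest median differences from normal libraries of the 5 families. Its 9 entries summed to 33.2, 38.9 and 44.2 TPM in combination, 35.8, 33.5 and 31 TPM in model and 43.8, 50.8 and 53.9 TPM in normal libraries. The model sums lay below all normal sums, and combination replicate 3 lay above normal replicate 1. The median log2 fold change over the 8 tested was -0.30 for combination minus normal and -0.39 for model minus normal. Hist1h2bcl1, with 949 bases in 2 exons the longest of the set's replication-dependent transcripts, had 11.9, 9.39 and 14.1 TPM in combination, 8.46, 7.08 and 9.59 TPM in model and 11, 14.4 and 15.2 TPM in normal libraries. Model libraries lay below normal ones, and combination libraries overlapped both. Hist2h2be, on chromosome 2, had 4.62, 5.56 and 2.52 TPM in combination, 3.02, 3.12 and 2.49 TPM in model and 6.78, 7.02 and 6.09 TPM in normal libraries, and was lower without overlap in both comparisons with normal. The 2 genes of chromosome 10, Hist3h2ba and Hist3h2bb, had log2 fold changes of -0.30 and -0.047 for model minus normal.

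**Figure D2:**
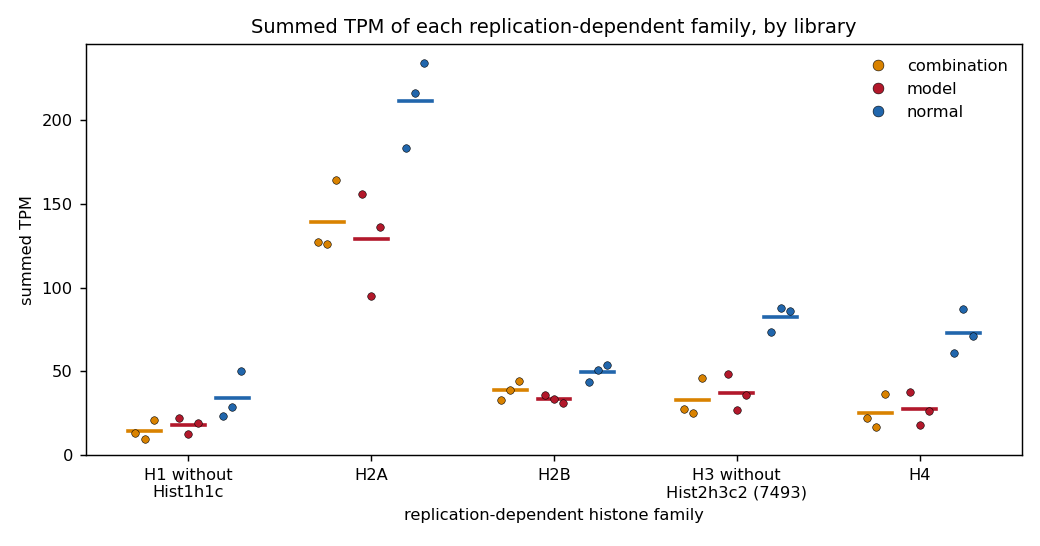
Summed TPM of the replication-dependent H1, H2A, H2B, H3 and H4 genes in combination, model and normal libraries, with points for libraries and bars for group means. Hist1h1c and the Hist2h3c2 copy whose listed level switches between libraries are left out, and H4 stands at 16.6 to 37.5 TPM in combination and model libraries and at 60.8 to 87.3 TPM in normal libraries.

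The linker histones had 1 gene whose listed level switched between libraries. The reference transcript of Hist1h1c, which encodes an H1 (chr17:43639749-43640387, minus strand), had 0.355, 99.6 and 198 TPM in combination replicates 1, 2 and 3, 112, 160 and 0.26 TPM in model replicates 1, 2 and 3, and 0.261, 226 and 286 TPM in normal replicates 1, 2 and 3. Each group thus held 1 library near 0. An assembled transcript of 2 exons and 2865 bases at the same locus, chr17:43636962-43734786, had 20.7 to 59 TPM in the 9 libraries, and 36.8, 44.1 and 44.4 TPM in the 3 libraries where the reference transcript was near 0. The SE of the Hist1h1c fold change was 2.79 in each comparison, so no difference could be read. The Hist2h3c2 copy at chr17:43791657-43792067 also switched, though not in all the same libraries. It had 0.613, 6.64 and 13.5 TPM in combination, 0.536, 6.84 and 11.7 TPM in model and 15.9, 0.558 and 0.517 TPM in normal libraries. Its assembled transcripts had 4.6, 0.263 and 0.237 TPM, 5.13, 0.433 and 0.579 TPM, and 0.681, 6.52 and 6.83 TPM in the same order of libraries. Where the reference copy of Hist2h3c2 was low, its assembled transcripts were high. At Hist1h1c this was not so, as its assembled transcript in the low libraries lay within its range in the others, 20.7 to 59 TPM.

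**Figure D3:**
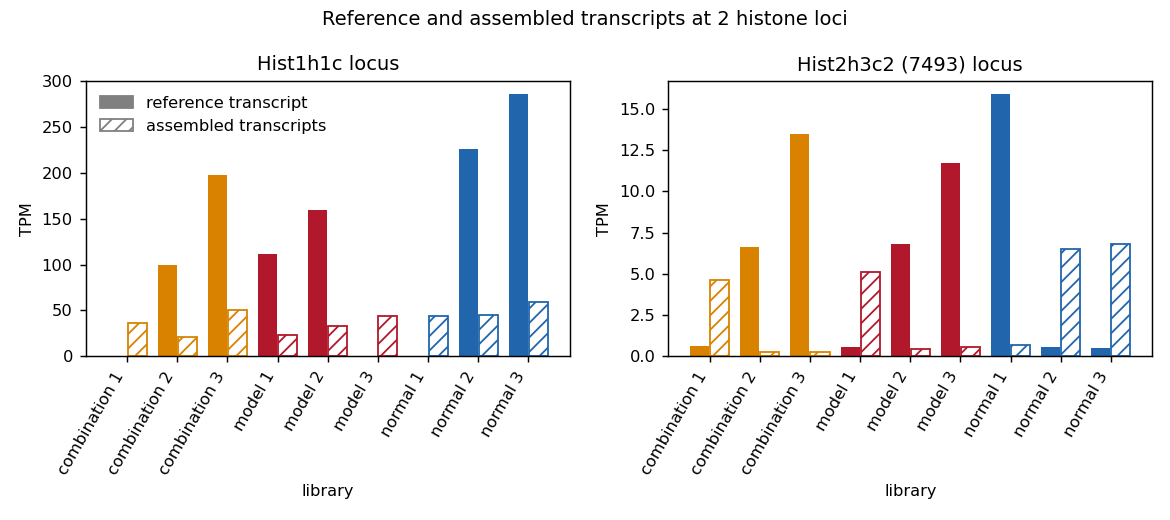
TPM of the reference transcript (filled bars) and of the assembled transcripts (hatched bars) at the loci of Hist1h1c and of 1 copy of Hist2h3c2, in each library. The Hist1h1c reference transcript is at 0.26 to 0.355 TPM in combination 1, model 3 and normal 1 and at 99.6 TPM or above in the other libraries.

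None of the other H1 genes passed the test. Without Hist1h1c, H1 summed to 13, 9.66 and 21.2 TPM in combination, 22.4, 12.6 and 19 TPM in model and 23.4, 28.7 and 50.5 TPM in normal libraries, which did not overlap the others. Hist1h1d had 9.12, 6.7 and 15.7 TPM in combination, 17.2, 10.2 and 16 TPM in model and 17.8, 19 and 42.1 TPM in normal libraries. Normal replicate 3 was far above the rest, and the log2 fold change was -1.21 ± 0.40 for combination minus normal (limma adjusted p = 0.143) and -0.74 ± 0.40 for model minus normal (limma adjusted p = 0.309). Hist1h1b had 2.44, 1.86 and 2.56 TPM in combination, 2.87, 1.82 and 1.12 TPM in model and 3.39, 6.11 and 6.11 TPM in normal libraries. Normal libraries were again all higher, with log2 fold changes of -0.89 ± 0.29 for combination minus normal (limma adjusted p = 0.138) and -1.09 ± 0.29 for model minus normal (limma adjusted p = 0.0853). Hist1h1a had 1.31, 1.1 and 3.01 TPM in combination, 2.27, 0.429 and 1.86 TPM in model and 2.05, 3.61 and 2.15 TPM in normal libraries, and overlapped in every comparison.

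In combination against normal libraries the replication-dependent histones were lower as well, with a median log2 fold change of -0.63 over 34 tested, 29 of them below 0, against a median of 0.039 and 46.7% below 0 over all units tested. The combination libraries lay wholly below the normal ones in 16 of 34 replication-dependent and 3 of 6 replacement histones, and wholly above in 0 of 40, whereas 15% of all units tested lay wholly below and 15.9% wholly above. Of the replacement histones, H3f3a and H2afv lay wholly below only as reference transcripts, and overlapped normal libraries once assembled transcripts were added. By limma 1 of 40, Hist1h4m, was lower and 0 were higher, against 0.303% and 0.318% of all units, and at an unadjusted p under 0.05 18 were lower and 0 higher, against 9.23% and 11.7% of all units. The count was 0 without any 1 normal library or without combination replicate 1 or 2, and 2 without combination replicate 3. Assembled transcripts raised it to 7, when 1.85% of all units were lower, and array weights raised it to 21, when 20.4% of all units were called. Without combination replicate 3, the highest of its group in 27 of the 34 replication-dependent genes, 29 of 40 histones lay wholly below normal, against 17.1% of all units with the same libraries.

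Between combination and model libraries no histone passed the test. By limma 0 of 40 were lower and 0 higher, against 0.287% and 0.169% of all units tested (0.456% in both directions), and at an unadjusted p under 0.05 2 were lower and 1 higher, against 10.5% and 11.7% of all units. The median log2 fold change over the 34 replication-dependent genes was 0.027, against 0.02 over all units, 16 of them lay below 0, against 48.2% of all units, and their groups overlapped in every case. The groups lay apart in 2 replacement histones, H3f3b and H1fx, both lower in combination, whereas 12% of all units tested lay wholly below and 12.8% wholly above. These counts moved with single libraries: 9 histones lay wholly lower without combination replicate 3, 5 lay wholly lower without model replicate 2, and 5 lay wholly higher without model replicate 1. Over all units the shares with the same libraries were 13.5%, 17.8% and 16.2%.

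**Figure D4:**
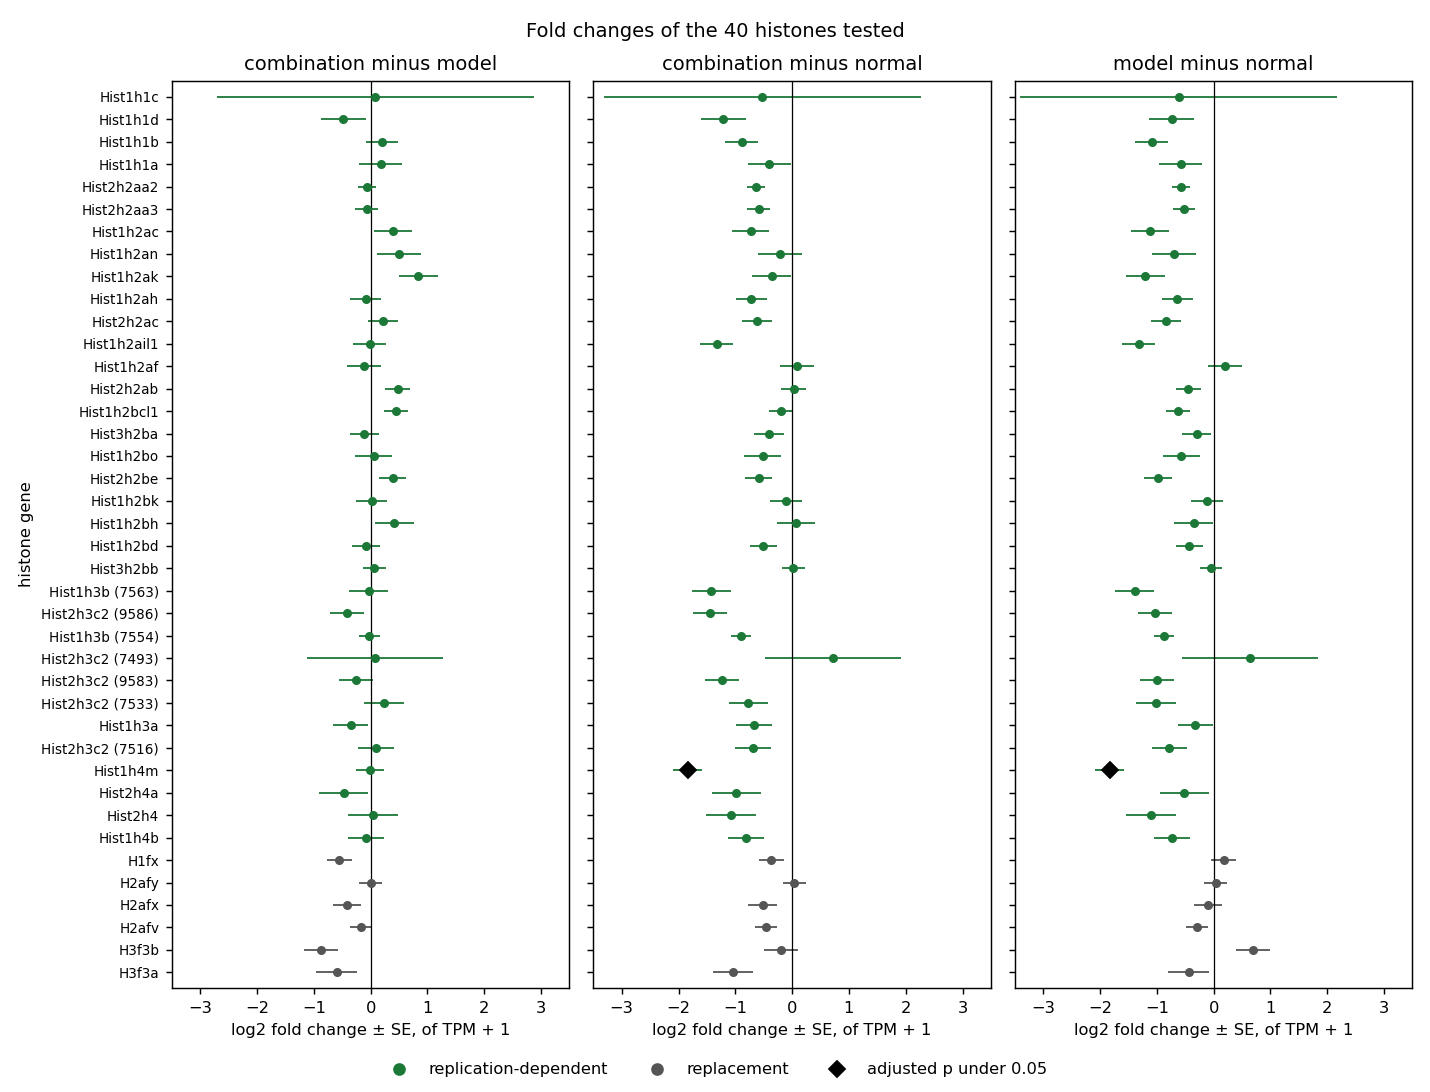
Log2 fold change ± SE (of TPM + 1) of the 40 tested histones for combination minus model, combination minus normal and model minus normal, with replication-dependent genes in green, replacement genes in grey and Hist1h4m, past the adjusted p of 0.05, as a black diamond. In the last 2 panels most green points lie left of 0, with medians of -0.63 and -0.67, and in the first they lie around 0.027.

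The libraries of a group did not move together. Over the 34 tested replication-dependent genes, model replicate 2 was the lowest of the model libraries in 24 and model replicate 1 the highest in 25. Combination replicate 3 was the highest of its group in 27, and normal replicate 1 the lowest of its group in 25. The median coefficient of variation over the replication-dependent genes was 36.2% in combination, 41.1% in model and 18.1% in normal libraries.

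The replacement histones were led by H3f3b. This gene, which encodes H3.3 and had the highest level of the set (chr10:104573664-104575890, minus strand, 4 exons), had 1273, 1075 and 1333 TPM in combination, 2263, 1365 and 3696 TPM in model and 1413, 1384 and 1384 TPM in normal libraries. The combination libraries lay below all others, and model replicate 2 lay below the normal libraries while model replicates 1 and 3 lay above them. The log2 fold change was -0.88 ± 0.30 for combination minus model (limma adjusted p = 0.146), -0.19 ± 0.30 for combination minus normal (limma adjusted p = 0.762) and 0.69 ± 0.30 for model minus normal (limma adjusted p = 0.222). Without model replicate 2 it was -1.24 ± 0.21 for combination minus model (limma adjusted p = 0.0354) and 1.05 ± 0.21 for model minus normal (limma adjusted p = 0.0257). In those fits 2.82% and 10.2% of all units were called, against 0.456% and 1.36% with all libraries. No other fit with 1 library left out called H3f3b, so these calls depend on removing the model library that lay below the normal ones. H1fx, a linker histone variant (chr4:119889371-119889949), had 12.4, 13.8 and 10 TPM in combination, 15.1, 19.6 and 19.8 TPM in model and 14, 13.7 and 20.5 TPM in normal libraries. The combination libraries lay below the model ones and overlapped the normal ones, and the log2 fold change of combination minus model was -0.55 ± 0.22 (limma adjusted p = 0.182).

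H2afy, which encodes macroH2A1, had 157, 166 and 111 TPM in combination, 125, 183 and 126 TPM in model and 140, 134 and 142 TPM in normal libraries. The 3 groups overlapped, and the log2 fold changes lay within 0.039 of 0. H2afx, which encodes the H2A.X that is phosphorylated at DNA breaks, had 34.8, 26.4 and 28.3 TPM in combination, 34.7, 32.7 and 56.4 TPM in model and 53.9, 42.5 and 34.5 TPM in normal libraries. Its groups overlapped in every comparison. H2afv, which encodes an H2A.Z, had 14.3, 17.2 and 16.7 TPM in combination, 21.2, 20.4 and 13.8 TPM in model and 21.6, 22.4 and 23 TPM in normal libraries. As reference transcripts the normal libraries were all higher than the others. The log2 fold changes were -0.46 ± 0.19 for combination minus normal (limma adjusted p = 0.216) and -0.29 ± 0.19 for model minus normal (limma adjusted p = 0.401).

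For 4 replacement genes the reference transcript held only part of the locus. H3f3a, the other H3.3 gene, had 0.427 to 0.52 TPM in combination, 0.378 to 2.83 TPM in model and 1.36 to 2.69 TPM in normal libraries as the reference transcript, but 67.9 to 87.4 TPM, 67.3 to 109 TPM and 73.2 to 79.4 TPM in the same order with assembled transcripts added. Its log2 fold change of combination minus normal was -1.04 ± 0.36 (limma adjusted p = 0.158) for the reference transcript and 0.0026 ± 0.19 (limma adjusted p = 0.994) with the assembled ones. H2afy and H2afv had group means of 385 ± 52.7 and 94.2 ± 10.1 TPM in combination, 406 ± 44.9 and 91.2 ± 9.72 TPM in model, and 395 ± 0.582 and 109 ± 11.8 TPM in normal libraries with assembled transcripts (SD, n = 3 each). H2afz, which encodes an H2A.Z, was listed at 0.484 to 0.594 TPM in combination, 0.224 to 0.516 TPM in model and 0.162 to 0.423 TPM in normal libraries. Assembled transcripts there run across H2afz and its neighbour Dnajb14, and the levels of the 2 genes cannot be told apart.

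**Figure D5:**
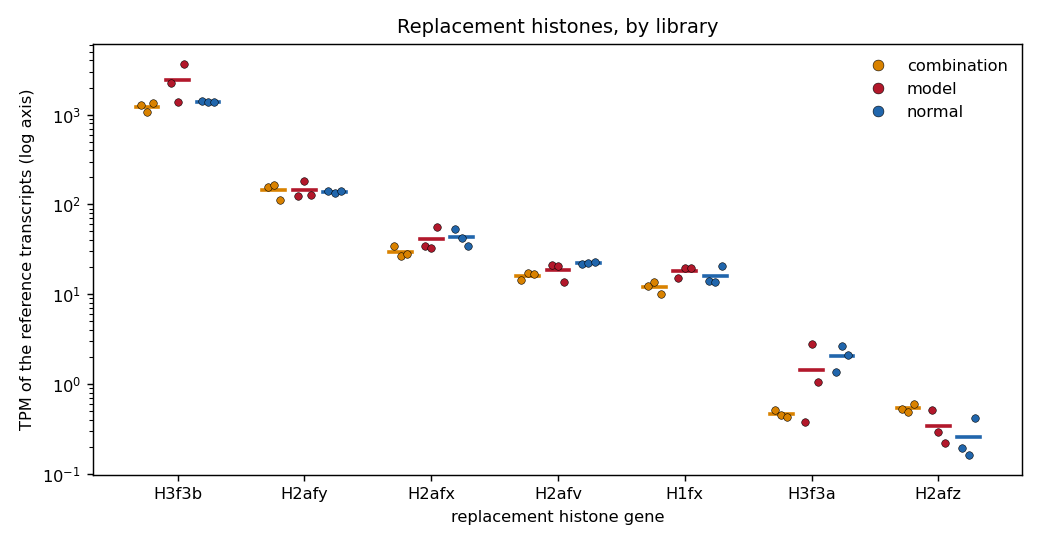
TPM (log axis) of the reference transcripts of the 7 replacement histones in combination, model and normal libraries, with points for libraries and bars for group means. H3f3b stands at 1075 to 3696 TPM, with model replicates 1 and 3 highest at 2263 and 3696 TPM, and H3f3a and H2afz are shown without the assembled transcripts at their loci.

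Set against each other, the replication-dependent sum was lower relative to the replacement sum in model libraries. The replacement sum is mostly H3f3b, which was not called. H3f3b made 2263, 1365 and 3696 TPM of replacement sums of 2459, 1624 and 3914 TPM in model libraries. In normal libraries it made 1413, 1384 and 1384 TPM of 1644, 1600 and 1607 TPM. The ratio is thus largely one to H3f3b and not to the replacement class as a whole. Without Hist1h1c and the switching copy of Hist2h3c2, a choice made after their values were seen, the replication-dependent genes summed to 223, 216 and 312 TPM in combination, 300, 186 and 248 TPM in model and 384, 471 and 495 TPM in normal libraries. Every normal sum was the higher. As a percentage of the replacement sum this was 14.9, 16.7 and 20.8% in combination, 12.2, 11.5 and 6.34% in model and 23.4, 29.4 and 30.8% in normal libraries, so the 3 groups did not overlap. With both genes kept, the percentages were 15, 24.9 and 34.9% in combination, 16.7, 21.7 and 6.65% in model and 24.4, 43.6 and 48.6% in normal libraries. Combination then overlapped both other groups. With both genes kept, the ratio in model libraries was 0.36 of that in normal libraries, and 0.51 without model replicate 3, in which H3f3b was highest.

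Genes that process histone mRNA were tested beside the histones themselves. Of 20 tested genes of histone mRNA processing, 0 passed in any comparison by limma. The medians were 0.14 for combination minus model, 0.14 for combination minus normal and 0.19 for model minus normal. At an unadjusted p under 0.05 the numbers higher were 1, 1 and 2 and the numbers lower 3, 0 and 1, in the same order. Over all units the shares at that threshold were 11.7%, 11.7% and 12.5% higher and 10.5%, 9.23% and 10% lower. Slbp, the stem-loop binding protein, had 15.8, 10.3 and 12.9 TPM in combination, 10.1, 18.7 and 32.1 TPM in model and 13.7, 10.9 and 10.6 TPM in normal libraries, and overlapped between groups. With assembled transcripts added, 1 of 22 rose in model against normal, Eri1, an exonuclease that trims histone mRNA ends, at 0.88 ± 0.20 (limma adjusted p = 0.0408), while 2.78% of all units rose. Npat, a coactivator of histone transcription, then averaged 8.68 ± 0.775 TPM in combination, 4.82 ± 0.324 TPM in model and 4.53 ± 0.881 TPM in normal libraries (SD, n = 3 each). It was higher in combination by 0.73 ± 0.17 against model (limma adjusted p = 0.0482), when 2.38% of all units were higher, and by 0.82 ± 0.17 against normal (limma adjusted p = 0.0389), when 2.5% were higher. Zcchc11, a uridylyltransferase, was also higher in combination than in normal libraries, by 1.37 ± 0.30 (limma adjusted p = 0.0426).

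Of 29 tested histone chaperones and exchange factors, 0 passed in any comparison by limma with reference transcripts. At an unadjusted p under 0.05 the numbers higher were 3, 2 and 4 and the numbers lower 2, 1 and 1 for combination minus model, combination minus normal and model minus normal. Over all units the shares were 11.7%, 11.7% and 12.5% higher and 10.5%, 9.23% and 10% lower, in the same order. With assembled transcripts added, Chaf1b, a subunit of the chromatin assembly factor that deposits H3 and H4 behind the replication fork, averaged 4.7 ± 0.25 TPM in model and 1.95 ± 0.203 TPM in normal libraries (SD, n = 3 each) and rose by 0.95 ± 0.17 (limma adjusted p = 0.0234). It was 1 of 34 tested, while 2.78% of all units rose. Ruvbl1, an ATPase of the complexes that exchange H2A.Z, averaged 18.2 ± 1.94 TPM in combination and 28.5 ± 0.755 TPM in model libraries and fell by 0.62 on the log2 scale (limma adjusted p = 0.0437), when 2.02% of all units fell. Its partner Ruvbl2 fell by 0.77 in combination against normal (limma adjusted p = 0.0458), when 1.85% of all units fell.

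The DNA replication genes, whose products act in the same phase as the replication-dependent histones, had medians above 0 for model minus normal and below 0 in the other comparisons. Over 28 tested with reference transcripts the median was -0.33 for combination minus model, against 0.02 over all units. There 24 lay below 0, against 48.2% of all units, and 8 were lower and 0 higher at an unadjusted p under 0.05, against 10.5% and 11.7%. For combination minus normal the median was -0.18, against 0.039 over all units, and 17 lay below 0, against 46.7% of all units. The list was mixed there, with 3 higher and 3 lower at an unadjusted p under 0.05, against 11.7% and 9.23%. For model minus normal the median over the 28 was 0.35, against 0.0037 over all units, and 0 passed by limma. At an unadjusted p under 0.05 6 were higher and 0 lower, against 12.5% and 10% of all units. With assembled transcripts 2 of 32 rose, Mcm5 and Uhrf1, while 2.78% of all units rose. Mcm5, a subunit of the replicative helicase, averaged 10.4 ± 1.76 TPM in combination, 24.1 ± 5.15 TPM in model and 10.2 ± 0.93 TPM in normal libraries (SD, n = 3 each), and rose by 1.14 ± 0.20 in model against normal (limma adjusted p = 0.0234). In combination against model it fell by 1.13 (limma adjusted p = 0.0282), and Gins2, of the GINS complex that works with it, fell by 1.09 (limma adjusted p = 0.0494). In combination against normal Dnmt1, the maintenance DNA methyltransferase, fell by 1.24 (limma adjusted p = 0.0262), and Gins3 fell by 0.94 (limma adjusted p = 0.0458). In the same fits 2.02% of all units fell in combination against model and 1.85% in combination against normal. Of 8 mitosis genes tested with reference transcripts 1 rose in model against normal, Cks2, a subunit of cyclin-dependent kinases, at 3.47 ± 0.44 (limma adjusted p = 0.0237), while 0.759% of all units rose. The median over the 8 was 0.069. Cks2 averaged 50.2 ± 7.56 TPM in combination, 155 ± 81 TPM in model and 13.3 ± 8.08 TPM in normal libraries (SD, n = 3 each). The summed TPM of the mitosis list was 72.5, 70.1 and 55.2 in combination, 150, 111 and 265 in model and 40.3, 23.3 and 23.4 in normal libraries, and Cks2 alone made 131, 88.3 and 245 of the model sums. Without Cks2 the list summed to 13.7 to 18.4 TPM in combination, 18.9 to 22.8 TPM in model and 13.5 to 17.8 TPM in normal libraries.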

How the data were processed

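The 9 deposited files list coverage, FPKM and TPM of 80092 transcripts as attributes of each transcript line. Per the file headers the authors ran StringTie 1.3.3b on a fixed set of transcripts, and per the submitters' processing notes bcl2fastq, HISAT2 and the rat build rn6 were used. The set held 41066 reference and 39026 assembled transcripts. Read counts were not used, and depth was computed from the ratio of coverage to FPKM, both deposited by the authors.

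TPM of reference transcripts was summed per gene name and locus, and unnamed transcripts per locus. Units with a mean of at least 1 TPM (19497) entered a limma 3.58.1 fit (R 4.3.3) of log2(TPM + 1) with 1 coefficient per group. Variances were moderated along an intensity trend (residual degrees of freedom 6, prior 2.6), and p-values were adjusted over all units by Benjamini-Hochberg, with 0.05 as the threshold. All adjusted p-values are limma's. The procedure was also run on simulated data with independent noise, which does not copy libraries that deviate in many genes at once, and no call here rests on it. Fold changes of low genes are understated by the pseudocount of 1. Sums, counts and figures were made with pandas 2.3.3, numpy 2.4.6 and matplotlib 3.10.9 under Python 3.11.15. Groups were called apart where every library of one lay above every library of the other.

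Each result was recomputed with a pseudocount of 0.1 or 5, without the filter on low values or with a minimum mean of 5 TPM, from FPKM, after median-ratio scaling, with assembled transcripts added to named genes, without units under 300 bases, in a fit of the compared groups alone, under array weights, without the trend, with a replicate block, and leaving out each library in turn. An unnamed assembled transcript was added to the named gene of its locus whose exons it overlapped most, on the same strand where it had one. Sums without Hist1h1c and 1 copy of Hist2h3c2, and the alternatives of the counts of groups that lay apart, were added after the values were seen. Same-numbered libraries had residual correlations of -0.06 to 0.068, so they were not paired. Histones were named where called, among the 15 of highest mean TPM, of the replacement class, or among the 5 largest fold changes of a comparison. Other histones named were chosen after their values were seen. Of each other gene list, up to 4 genes past the threshold or else the 2 of smallest p were tabulated, and a part is printed. Members, lists and tests were chosen with earlier results of these data known.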

Additional observations from a re-analysis of the deposited data

How the results depend on the processing

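The single histone called lower in model than in normal libraries became 2 with a pseudocount of 5 and with a minimum mean of 5 TPM, 4 with FPKM (4.13% of all units called in either direction) and with array weights (9.06%), 3 with median-ratio scaling (3.48%) and 6 with assembled transcripts added (4.89%). It became 0 without a filter, with only the 2 groups compared and with the replicate block, and 0 to 3 when 1 library was left out, with 0 to 1 called higher. The single histone called lower in combination than in normal libraries became 2 with FPKM (3.38%) and with median-ratio scaling (3.74%), 7 with assembled transcripts added (4.35%), 3 with only the 2 groups compared (2.49%), 21 with array weights (20.4%) and 0 with the replicate block, and 0 to 2 when 1 library was left out. Between combination and model libraries 1 was called lower with array weights (8.54%), and 0 to 1 when 1 library was left out. The replicate numbers do not pair the libraries: 2 of 9 correlated best with their own number, and the replicate block left an adjusted p by limma of 0.088 for Hist1h4m in model against normal and 0.105 in combination against normal. The cause of these changes was not tested.

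Histones lying wholly above the other group numbered 0 to 1 for model against normal, 0 to 5 for combination against model and 0 to 1 for combination against normal when 1 library was left out. Over all units the shares wholly above were then 19.8% to 23.6%, 15.3% to 23.3% and 18.3% to 30.4% in the same order. Histones wholly above numbered 1 with FPKM for combination against model and 1 without a filter for combination against normal. Histones wholly below numbered 1 with median-ratio scaling and 2 to 9 when 1 library was left out for combination against model, and 20 to 29 when 1 library was left out for combination against normal. With 1 library left out, 13.5% to 19.3% and 17.1% to 22.9% of all units lay wholly below in these 2 comparisons. For model against normal the 22 wholly below became 16 with median-ratio scaling, 19 of 35 tested with FPKM and 23 with assembled transcripts added. They numbered 22 to 27 when 1 library was left out, against 15.3% to 27.1% of all units. For combination against normal the 19 became 16, 16 of 35 and 17 in the same order of settings. Shares of all units under these settings are not given here. The median of the replacement histones for combination minus model, -0.49, became -0.30 with a pseudocount of 5, -0.29 with assembled transcripts added and -0.35 with array weights. For combination minus normal it was -0.41, became -0.20 with assembled transcripts added, and was -0.46 to -0.31 when 1 library was left out. The median of the replication-dependent histones stayed between -0.84 and -0.48 for model minus normal and between -0.86 and -0.37 for combination minus normal under every alternative. Hist1h4m stayed below 0 against normal libraries in every setting run. H3f3a, called lower in combination than in normal libraries under array weights (-1.05, limma adjusted p = 0.0234), was at 0.0026 with assembled transcripts added. With 3 libraries a group and no read counts, counting error could not be given, differences of low genes could not be resolved, and near-identical copies could not be separated.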

Other observations

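Of histone names that lie outside the chosen set, hist1h2ail2, written in lower case in the files, had 3.43, 2.99 and 5.13 TPM in combination, 3.56, 3.39 and 4.05 TPM in model and 5.67, 6.18 and 8.28 TPM in normal libraries. Every normal library was above all others, as for 14 of the 34 tested replication-dependent genes, and the log2 fold change was -0.68 ± 0.22 for combination minus normal (limma adjusted p = 0.142) and -0.71 ± 0.22 for model minus normal (limma adjusted p = 0.12). H2afj, which encodes the H2A variant H2A.J, had 145, 206 and 180 TPM in combination, 165, 189 and 99.6 TPM in model and 169, 170 and 181 TPM in normal libraries, with overlap throughout. Cenpa, the H3 variant of centromeres, had 1.5, 1.31 and 0.707 TPM in combination, 1.59, 1.33 and 1.79 TPM in model and 0.595, 0.559 and 0.953 TPM in normal libraries. The model libraries all lay above the normal ones, by 0.60 ± 0.22 on the log2 scale (limma adjusted p = 0.159). H3f3c, listed as an H3.3 gene, averaged 97 ± 13.9 TPM in combination, 115 ± 11 TPM in model and 92.7 ± 9.25 TPM in normal libraries (SD, n = 3 each), and model exceeded normal by 0.31 ± 0.16 on the log2 scale (limma adjusted p = 0.286).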
